A study of Mus musculus with 15 samples.

Results

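The S100 genes encode small calcium-binding proteins, and 10 of them were followed by name: S100a1, S100a4, S100a6, S100a7a, S100a8, S100a9, S100a10, S100a11, S100a13 and S100a16. The set was chosen on the measured CPM of S100a4 and S100a7a, known beforehand to be higher after PCBP1 knockdown in these same files, so their levels in the knockdown comparison describe how they were chosen and were not tested. The knockout dataset held values for 9 of the 10 genes among 13893, and the knockdown dataset held all 10 among 15023. S100a9 was not analysed in the knockout dataset here. Of the 10, 8 averaged 0.5 CPM or more, the filter used (CPM is the reads of a gene scaled to the size of the library), in each dataset.

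RNA-Seq of 15 samples from NMuMG cells, a mouse mammary epithelial line, was examined in 2 separately normalized datasets. In the first dataset every line carried the PCBP1 shRNA: there were 4 shPCBP1 lines, namely 1 left unaltered and CT clones 1 to 3 (exposed to Cas9 without a gene-specific guide), beside 3 clones of FAM3C KO, 3 of LIFR KO and 1 double KO of both genes. Each knockout line grew from a single colony after CRISPR-Cas9 removal of a short coding fragment, and each line gave 1 RNA sample. The second, older dataset compared 2 shPCBP1 samples with 2 control samples, which the labels give as untreated NMuMG and the study calls shSCR (nonspecific shRNA). All samples carry the genotype label wild type. PCBP1 is an RNA-binding protein that represses translation, FAM3C (also called ILEI) is a secreted cytokine, and LIFR is the receptor for leukemia inhibitory factor that was reported to act with it.

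S100 proteins form dimers whose EF-hand loops take up calcium, and the calcium-bound dimer exposes a surface that grips partner proteins. S100A4 binds nonmuscle myosin heavy chain and is known from motile and metastatic cells, S100A10 pairs with annexin A2 at the membrane, and S100A6 and S100A11 bind other annexins. S100A7, S100A8 and S100A9 are known from inflamed or stressed epithelium and, for S100A8 and S100A9, from neutrophils. Most S100 genes lie side by side within the epidermal differentiation region of the genome.

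All 10 genes were on chromosome 3 of GRCm38. The 8 genes from S100a1 to S100a9 lay within 185 kb, and S100a11 and S100a10 lay 2.82 Mb further along. S100a4 (ENSMUSG00000001020) spanned chr3:90603771-90606045 on the plus strand, S100a6 (ENSMUSG00000001025) began 6.84 kb after its end at chr3:90612882-90624181, and S100a7a (ENSMUSG00000063767) followed at chr3:90654017-90658669. S100a1 (chr3:90511034-90514392, minus strand) and S100a13 (chr3:90514435-90524581, plus strand) start back to back with 42 bases between the annotated gene ends. The exons of S100a4 share 302 bases with Gm42674, a gene on the same strand, so reads in that stretch may belong to either.

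The promoters of the 2 genes around which the set was assembled are shown because these genes stood furthest from the controls, and the gap between S100a1 and S100a13 because these genes share it. RefSeq start-site windows (GRCm38.p6) were found for 9 of the 10 genes. Each promoter line gives the 250 bases before the RefSeq start on the plus strand, chr3:90603520-90603769 for S100a4 and chr3:90654052-90654301 for S100a7a. The first bases of the S100a7a stretch overlap an exon of a noncoding transcript of the same gene. The third line is the gap at chr3:90514393-90514434. Capitals mark matches, on either strand, to 1 of 5 motifs. The first was TTCNNNGAA, which is the general shape of a STAT site. The second was TGANTCA, which is known from AP-1 sites. The third was CATCTG, which is one form of the E-box. The fourth was GGGCGG, which is the core of a GC box. The fifth was TATAAA, which is the usual TATA box. Their matches in these lines did not overlap each other.
S100a4: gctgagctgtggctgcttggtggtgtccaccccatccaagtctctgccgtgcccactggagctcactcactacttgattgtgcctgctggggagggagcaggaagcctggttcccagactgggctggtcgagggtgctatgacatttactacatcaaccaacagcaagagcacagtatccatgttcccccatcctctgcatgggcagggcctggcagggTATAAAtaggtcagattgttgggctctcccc
S100a7a: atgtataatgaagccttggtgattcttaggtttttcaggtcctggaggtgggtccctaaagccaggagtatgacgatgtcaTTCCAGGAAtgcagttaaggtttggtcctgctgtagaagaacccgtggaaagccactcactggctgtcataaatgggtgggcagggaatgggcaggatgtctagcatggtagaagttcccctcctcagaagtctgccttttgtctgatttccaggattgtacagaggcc
S100a1-S100a13: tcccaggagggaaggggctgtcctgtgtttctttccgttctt

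The S100a4 stretch held TATAAA 31 bases before the start, a motif found in 12.4% of all 32851 windows, and no other motif of the 5. The S100a7a stretch held TTCNNNGAA 169 bases before the start, a motif found in 7.02% of all windows, and it was the only one of the 10 windows of these genes with that motif. The gap between S100a1 and S100a13 held none of the 5. TGANTCA was present in 6.75% of all windows, CATCTG in 14.4% and GGGCGG in 32.7%. These are matches of letters, and no binding was measured here.

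In the knockdown dataset, S100a7a and S100a4 were higher in shPCBP1 than in the controls, S100a6 was lower, and the other tested members differed by less. S100a7a stood at 3.98 and 3.68 CPM in the 2 control samples and at 129 and 127 CPM in the 2 shPCBP1 samples. The ratio of the means was 33.4. Among the 11384 genes past the filter, its log2 difference ranked 93 from the highest.

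S100a4 stood at 62.8 and 60.4 CPM in the controls and at 319 and 313 CPM in shPCBP1. The ratio of the means was 5.14, and its rank was 393. S100a6 stood at 1358 and 1305 CPM in the controls and at 643 and 617 CPM in shPCBP1, a ratio of 0.474. In each of these 3 genes the 2 samples of a group lay close together and the groups were far apart.

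The other members lay nearer to their controls. S100a1, known from muscle as a regulator of calcium handling, was at 23.6 and 23.2 CPM in the controls and 18.1 and 15.2 CPM in shPCBP1. S100a10, the annexin A2 partner, was at 168 and 153 CPM in the controls and 141 and 134 CPM in shPCBP1. S100a11 was at 217 and 205 CPM in the controls and 183 and 170 CPM in shPCBP1. In these 3 genes both shPCBP1 samples were below both controls.

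S100a13, which takes part in the release of FGF1 from cells, was at 14.9 and 13.3 CPM in the controls and 16.7 and 15.4 CPM in shPCBP1. S100a16 was at 30.1 and 28.5 CPM in the controls and 26.7 and 25.6 CPM in shPCBP1. S100a8 and S100a9, the subunits of calprotectin, lay between 0.0371 and 0.189 CPM in all 4 libraries, which corresponds to about 2 to 10 reads per library, and their groups overlapped. These 2 genes were below the filter, and a difference in them was not detectable at this depth.

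By the rule of a fold of at least 1.5, 2 of the 8 members that passed the filter (S100a4 and S100a7a) were higher, beside 16% of all genes tested, and 1 (S100a6) was lower, beside 15.1%. Groups did not overlap in any of the 8, with 3 higher, beside 46.3% of all genes, and 5 lower, beside 42.6%. Because this contrast chose the set, nothing is read from these counts. Reads of Gm42674 may be counted within S100a4.

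**Figure D1:**
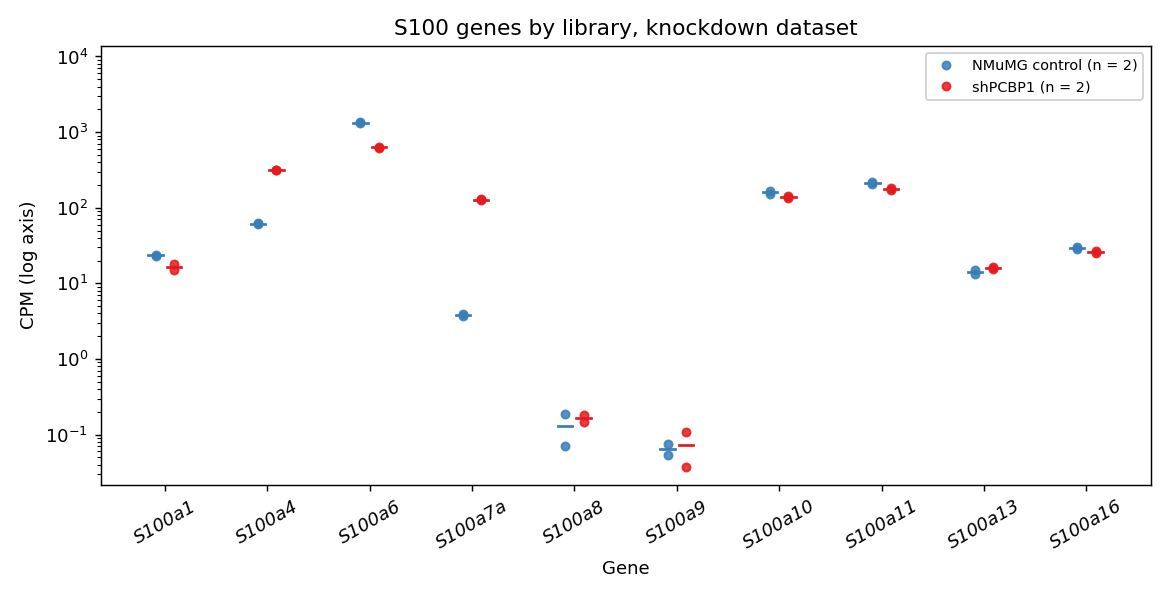
CPM of each S100 gene (log axis) in the 2 NMuMG control and 2 shPCBP1 libraries of the knockdown dataset, with points for libraries and short lines for group means. S100a7a sits near 4 CPM in the controls and near 128 CPM in shPCBP1, S100a4 near 61.6 and 316 CPM, and S100a6 near 1331 and 630.4 CPM.

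Summed over the 10 genes, S100 transcripts made up 1793 to 1878 CPM in the controls and 1418 to 1477 CPM in shPCBP1. S100a6 was 72.3 to 72.8% of that sum in the controls and 43.5 to 43.6% in shPCBP1. S100a4 was 3.35 to 3.37% in the controls and 21.6 to 22.1% in shPCBP1. The 2 samples of a group had nearly the same composition.

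Levels can be compared between genes per kilobase of exon. On that scale the order in the controls was S100a6 (974 CPM per kb), S100a11 (413), S100a10 (132) and S100a4 (105), followed by S100a1 (33.7), S100a13 (19.7), S100a16 (18.1), S100a7a (2.78), S100a8 (0.187) and S100a9 (0.123). Only S100a8 and S100a9 overlapped with their neighbour in that order. In shPCBP1 the order was S100a4 (542 CPM per kb), S100a6 (461), S100a11 (345), S100a10 (114), S100a7a (92.9), S100a1 (24.01), S100a13 (22.4) and S100a16 (16.2), followed by S100a8 (0.236) and S100a9 (0.139). S100a1 and S100a13 overlapped there. The length used was all annotated exon bases of a gene, 1367 for S100a6 and 584 for S100a4. Their longest transcripts have 783 and 498 bases. Ranks of genes close in level, such as S100a4 and S100a6 in shPCBP1, depend on that choice of length.

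Along the chromosome, S100a4 and S100a6 lay 6.84 kb apart and differed in opposite directions. On the log2(CPM + 0.1) scale S100a4 was at 2.36, S100a6 at -1.08 and S100a7a at 5.03 (shPCBP1 minus control), and S100a7a begins 29.8 kb after the end of S100a6. Of 8 further S100 genes on the list, 6 had a row and 2 passed the filter. Both fell by limma, beside 38% of all genes called lower: S100a14 fell by 1.45 on the log2 scale (SE 0.15, adjusted p = 5.3e-06) and S100a3, the gene before S100a4 in the plot of the cluster, fell by 0.60 (SE 0.08, adjusted p = 5.3e-05).

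Of 17 neighbouring genes within 200 kb that are not S100 genes, 7 were tested, of which 3 rose, 3 fell and 1 was not called. Npr1, a receptor for natriuretic peptides, was at 0.195 and 0.151 CPM in the controls and at 1.22 and 0.922 CPM in shPCBP1. It counts among the 3 that rose, but it passed the filter only through its shPCBP1 level, so its call is not used as support. Slc27a3, of the fatty acid transporter family, fell by 1.26 on the log2 scale (SE 0.15, adjusted p = 1.5e-05 from limma), and Gatad2b, a subunit of the NuRD complex, fell by 0.48 (SE 0.03, adjusted p = 2.4e-07). In this dataset 80.1% of all tested genes were called, 42.1% as higher and 38% as lower.

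**Figure D2:**
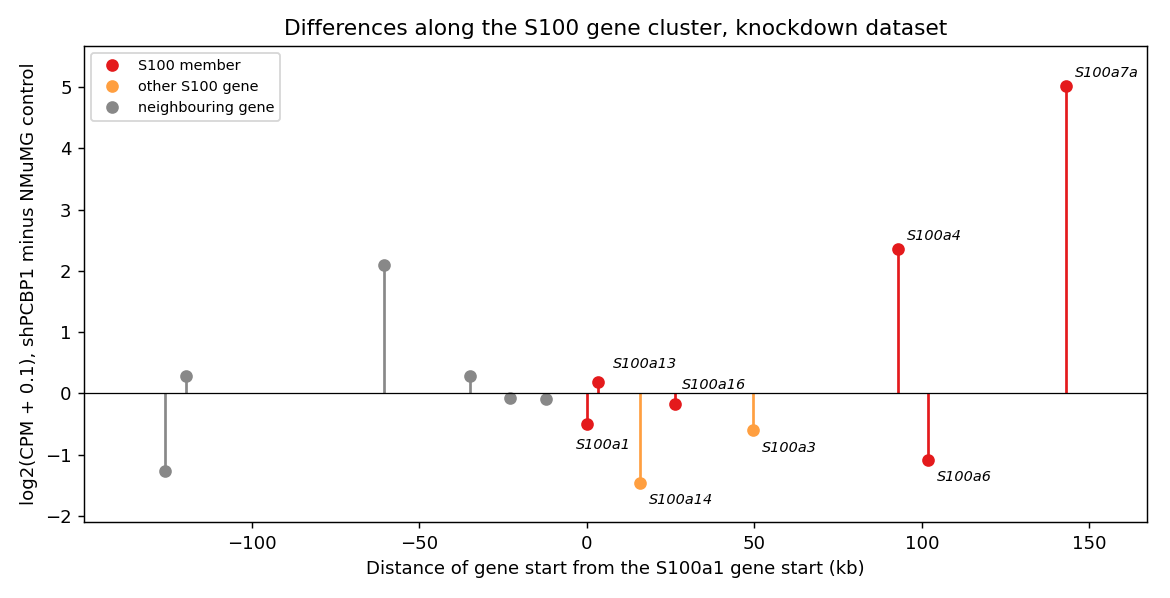
Difference in log2(CPM + 0.1) between shPCBP1 and NMuMG control (group means of 2 libraries each) against the distance of each gene start from the S100a1 gene start in kb, for the genes that passed the filter. S100a4 and S100a7a stand at 2.36 and 5.03, with S100a6 between them at -1.08 and S100a14 lowest among the S100 genes at -1.45.

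The known partners, receptors and calcium-binding relatives of S100 proteins were measured in the same samples, from lists written for this work. Of 37 such genes 31 were tested, of which 14 rose, 14 fell and 3 were not called, beside the 80.1% of all genes called. With a fold of at least 1.5 required as well, 7 of the 31 were past both. By the fold alone 16% of all genes were higher and 15.1% lower. The 7 include the receptor gene Mcam, which passed the filter only through its shPCBP1 level. Among 12 binding partners 7 rose and 5 fell, with a median log2 fold change of 0.15 beside 0.02 for all genes tested.

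Fgf1, whose release S100A13 assists, fell by 3.72 on the log2 scale (SE 0.06, adjusted p = 2.2e-12 from limma), from 46.3 and 44.7 CPM to 3.46 and 3.27 CPM. Anxa6, a membrane-binding annexin, rose by 0.86 (SE 0.10, adjusted p = 1.2e-05), and Sugt1, a chaperone adaptor bound by S100A6, rose by 0.80 (SE 0.07, adjusted p = 6.7e-07). Myh9 and Anxa2 were outside the rule for named genes and are given for their roles. Myh9, the heavy chain bound by S100A4, was at 367 and 360 CPM in the controls and at 518 CPM in both shPCBP1 samples (log2 fold change 0.51, SE 0.02, adjusted p = 1.7e-09). Anxa2, the S100A10 partner, rose by 0.15 (SE 0.03, adjusted p = 0.00031).

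Of 5 receptor genes tested, 1 rose and 2 fell, beside 42.1% and 38% of all genes. Mcam, an adhesion molecule, was at 0.0355 CPM and at the lowest value in the controls and at 1.81 and 1.90 CPM in shPCBP1. It is the 1 that rose, but it too passed the filter only through its shPCBP1 level, so its call is not used as support. Alcam, a related adhesion molecule, fell by 0.55 (SE 0.05, adjusted p = 3.5e-06), and Bsg, an immunoglobulin-family glycoprotein, fell by 0.19 (SE 0.02, adjusted p = 1.9e-05). Ager, which encodes RAGE, was below the filter at 0.126 to 0.867 CPM.

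Of 14 other EF-hand and calpain genes tested, 6 rose and 7 fell, beside 42.1% and 38% of all genes. The largest changes were decreases in Cib1, a small EF-hand protein (log2 fold change -0.91, SE 0.08, adjusted p = 6.9e-07), in Calm3, 1 of the calmodulin genes (-0.84, SE 0.02, adjusted p = 9.6e-11), and in Capn1, a calpain (-0.61, SE 0.05, adjusted p = 1.1e-06), all from limma. Of 10 epidermal differentiation genes, 3 were tested and all 3 rose, beside 42.1% of all genes. Sprr1a, a cornified envelope precursor, went from 238 and 254 CPM to 880 and 866 CPM (log2 fold change 1.83, SE 0.03, adjusted p = 2.2e-12 from limma). The others were low in the controls: Ivl, at 1.87 to 2.07 CPM there, rose by 0.30, and Sprr1b, at 0.797 to 0.981 CPM, by 0.70.

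The cell type lists were read in the same samples. Of 6 mesenchymal markers 5 were tested and all 5 rose, beside 42.1% of all genes called higher and 38% called lower. The mesenchymal list summed to 535 to 556 CPM in the controls and 1310 to 1345 CPM in shPCBP1. Acta2 was under 0.5 CPM in every library. Of 6 epithelial markers 4 were tested, of which 1 rose and 3 fell, with sums of 2917 to 2970 CPM and 2766 to 2823 CPM. The log2 fold changes were 0.08 for Krt18, -0.07 for Krt8, -0.17 for Krt19 and -0.65 for Cdh1. The myeloid list summed to 1.45 to 1.59 CPM in the controls and 1.87 to 1.97 CPM in shPCBP1, of which Cd68 was 1.06 and 1.11 CPM in the controls and 1.65 and 1.66 CPM in shPCBP1, and Ptprc, Itgam and Lyz2 were under 0.5 CPM in every library. The basal markers Krt5, Krt14 and Trp63 were also under 0.5 CPM. The part of the mesenchymal markers in the S100 levels was not tested, and in bulk RNA fewer cells with a transcript and less of it per cell cannot be told apart.

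The targeted transcripts and the libraries were checked before the knockout comparisons. Pcbp1 was at 287 and 312 CPM in the controls and at 14.1 and 14.2 CPM in shPCBP1 of the knockdown dataset, and at 32.9 to 37.1 CPM in the shPCBP1 lines of the knockout dataset, where the 7 knockout libraries held 19.9 to 39.5 CPM. Fam3c was at 26.4 to 42.9 CPM in FAM3C KO and 47.0 to 59.4 CPM in shPCBP1. Lifr was at 14.6 to 34.9 CPM in LIFR KO and 25.8 to 40.2 CPM in shPCBP1. In FAM3C KO Lifr was at 10.5 to 19.2 CPM, and in the double KO at 4.36 CPM. These are levels of the whole transcript, and the removed fragment itself was not tested. Totals implied by the lowest values were 16031864 to 46901674 reads in the knockout dataset and 53032194 to 56496385 in the knockdown dataset. LIFR KO clones 2 and 3 and the double KO stood apart: the Spearman correlation, across 12603 genes that are not independent, of the difference from the shPCBP1 mean with GC content was -0.76 to -0.70 in these 3 libraries and -0.29 to 0.24 in the other 8, and mitochondrial transcripts took 7.16 to 8.58% of CPM against 3.14 to 4.06%.

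The rule for the set names the knockdown comparison and not the knockouts, although earlier results of both datasets were known when it was made. In the knockout dataset the question was whether S100 transcripts of shPCBP1 cells differed once FAM3C or LIFR was lost. S100a13 was lower in LIFR KO and was the only one of the 8 tested members past the threshold in either knockout. S100a4 was not called, and its lowest value among the 7 knockout libraries was 280 CPM. S100a7a was not called either, and its lowest value was 22.0 CPM, in the double KO. The 2 datasets were normalized separately. The deposited CPM of a library summed to 703925 to 786742 in the knockout dataset and 411758 to 415645 in the knockdown dataset. So the levels of S100a4 and S100a7a can only be set beside those in the knockdown controls. There S100a4 was at 60.4 to 62.8 CPM and S100a7a at 3.68 to 3.98 CPM.

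**Figure D3:**
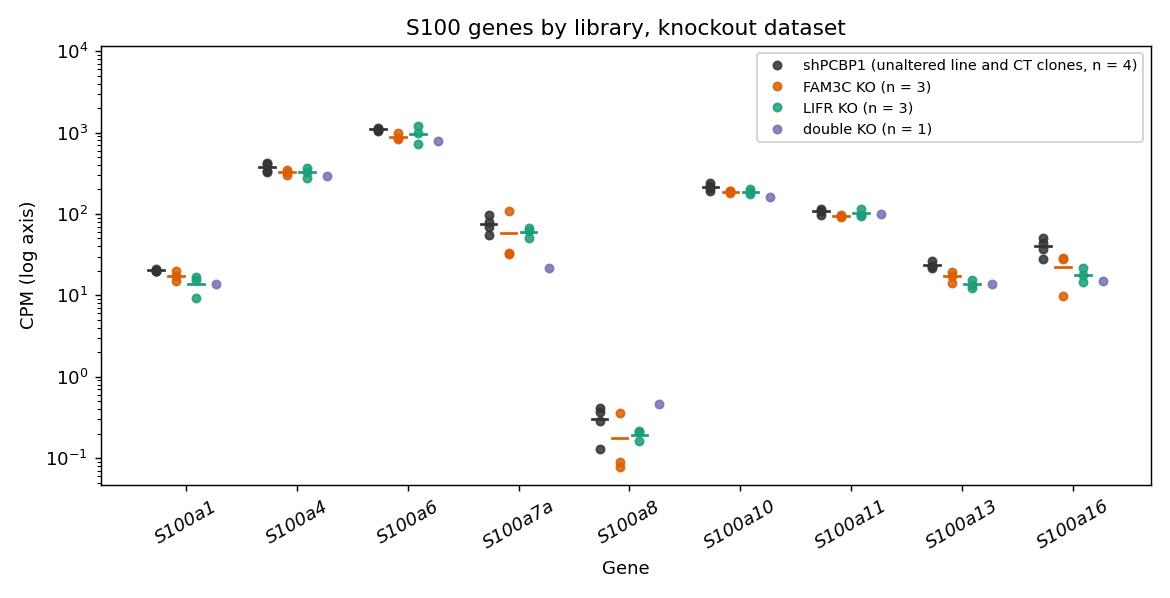
CPM of 9 S100 genes (log axis) in the 11 libraries of the knockout dataset, with points for libraries and short lines for the means of groups with replicates. S100a13 lies at 21.9 to 26.7 CPM in shPCBP1, 14.4 to 19.6 CPM in FAM3C KO and 12.2 to 15.6 CPM in LIFR KO, while S100a7a spreads from 32.7 to 109 CPM within FAM3C KO.

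S100a4 was at 329 CPM in the unaltered line, while CT clones 1 to 3 held 425, 332 and 415 CPM. FAM3C KO clones 1 to 3 held 324, 301 and 346 CPM, and LIFR KO clones 1 to 3 held 363, 327 and 280 CPM. The groups overlapped in both comparisons, with log2 fold changes of -0.21 (SE 0.13, adjusted p = 0.692) and -0.21 (SE 0.13, adjusted p = 0.252) from limma. The 95% confidence interval ran from -0.50 to 0.09 in FAM3C KO and from -0.51 to 0.08 in LIFR KO.

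S100a7a was at 55.7 CPM in the unaltered line, while CT clones 1 to 3 held 79.0, 70.1 and 97.7 CPM. FAM3C KO clones 1 to 3 held 33.5, 109 and 32.7 CPM, and LIFR KO clones 1 to 3 held 50.3, 67.8 and 61.3 CPM. FAM3C KO clones 1 and 3 lay below every shPCBP1 line and clone 2 above every one. The log2 fold changes were -0.59 (SE 0.37, adjusted p = 0.685) and -0.32 (SE 0.37, adjusted p = 0.542) from limma, neither past the threshold. The value in FAM3C KO was -1.16 without clone 2, -0.31 without clone 1 and -0.29 without clone 3.

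S100a6 was at 1055 CPM in the unaltered line, while CT clones 1 to 3 held 1136, 1088 and 1110 CPM. It was at 838, 980 and 849 CPM in FAM3C KO, and at 1192, 983 and 723 CPM in LIFR KO. All 3 FAM3C KO clones lay below the 4 shPCBP1 lines, while LIFR KO spanned them. Its log2 fold change in FAM3C KO was -0.31 (SE 0.15, adjusted p = 0.545 from limma). With those 2 groups fitted alone, the adjusted p from limma was 0.0508 for S100a6 and 0.0538 for S100a13, and 1040 genes of all were called in place of 39.

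S100a13 was at 21.9 CPM in the unaltered line, while CT clones 1 to 3 held 23.1, 26.7 and 22.7 CPM. FAM3C KO clones 1 to 3 held 19.6, 17.2 and 14.4 CPM, and LIFR KO clones 1 to 3 held 13.4, 12.2 and 15.6 CPM, and neither knockout group overlapped with shPCBP1. It fell by 0.78 on the log2 scale in LIFR KO (SE 0.14, 95% confidence interval -1.09 to -0.47, adjusted p = 0.0348 from limma), and its value in FAM3C KO was -0.47 (SE 0.14, adjusted p = 0.239). The call in LIFR KO was lost with a correction for GC content (log2 fold change -0.36, adjusted p = 0.288). It was also lost, with folds close to the value above, with the 2 groups fitted alone (-0.78, adjusted p = 0.0753), without any 1 of the 4 shPCBP1 lines (-0.82 to -0.72, adjusted p of 0.0744 to 0.110) and without LIFR KO clone 2 (-0.70, adjusted p = 0.109). With clone 1 as the only LIFR KO library the log2 difference was -0.81 (adjusted p = 0.0652), where the spread comes from the other groups alone and the lone sample is assumed to vary like them. In the FAM3C KO against LIFR KO contrast the difference was 0.31 (SE 0.15, adjusted p = 0.192).

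S100a1, across the 42-base gap from S100a13, was at 21.2 CPM in the unaltered line, while CT clones 1 to 3 held 19.9, 20.002 and 19.9 CPM. The FAM3C KO clones held 20.2, 15.1 and 17.1 CPM, and those of LIFR KO 15.2, 9.23 and 16.6 CPM. LIFR KO lay below all shPCBP1 lines, with a log2 fold change of -0.60 (SE 0.19, adjusted p = 0.0824), and FAM3C KO overlapped with them. Over the 11 libraries the log2 values of S100a1 and S100a13 had a Pearson r of 0.82, and over the 8 libraries without the GC shift 0.81. The points share library, depth and cell line.

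S100a16 was at 28.2 CPM in the unaltered line, while CT clones 1 to 3 held 37.1, 44.2 and 50.9 CPM. FAM3C KO clones 1 to 3 held 28.1, 9.88 and 28.8 CPM, and LIFR KO clones 1 to 3 held 21.5, 14.7 and 17.5 CPM. Its log2 fold changes were -0.97 (SE 0.35, adjusted p = 0.353) in FAM3C KO and -1.14 (SE 0.35, adjusted p = 0.0813) in LIFR KO from limma, and neither passed the threshold. Without FAM3C KO clone 2 the first was -0.46.

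S100a10 and S100a11 lay close to their levels in shPCBP1. S100a10 ranged from 192 to 240 CPM in shPCBP1, from 183 to 191 CPM in FAM3C KO and from 174 to 204 CPM in LIFR KO. S100a11 ranged from 97.6 to 117 CPM, from 91.6 to 97.2 CPM and from 95.04 to 114 CPM in the same groups. In FAM3C KO both genes lay below all shPCBP1 lines, with log2 fold changes of -0.20 (SE 0.10) each and adjusted p of 0.540 and 0.536 from limma. S100a8 lay between 0.0768 and 0.468 CPM, about 2 to 12 reads, in all 11 libraries and was not tested.

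In FAM3C KO, 0 of the 8 tested members were called by limma, beside 0.309% of all 12621 genes. An unadjusted p under 0.05 was reached by 2 members and by 1286 of all genes. All 8 log2 fold changes were below 0, as were 52.9% of all genes, and 4 members did not overlap with shPCBP1 on the lower side, beside 12.5% of all genes. Their median was -0.26, beside -0.01 for all genes. In LIFR KO, 1 of the 8 was called, on the lower side, beside 6.47% of all genes called and 5.55% called lower, and 3 did not overlap on the lower side, beside 13.2%. Here 3 members and 4503 of all genes had an unadjusted p under 0.05 from limma. All 8 values were again below 0, beside 64.5% of all genes, with a median of -0.27 beside -0.16 for all genes, though S100a6, S100a10 and S100a11 were above 0 with the GC correction, S100a11 also with median-ratio rescaling and S100a6 also with clone 1 alone. Of the 816 genes called in LIFR KO 115 were higher, and of the 458 called with median-ratio rescaling 170 were. Relative to that median of all genes, S100a16 was at -0.98, S100a13 at -0.62, S100a1 at -0.44 and S100a7a at -0.16, S100a4, S100a6 and S100a10 were between -0.05 and -0.04, and S100a11 was at 0.07. Both comparisons share the same shPCBP1 libraries.

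**Figure D4:**
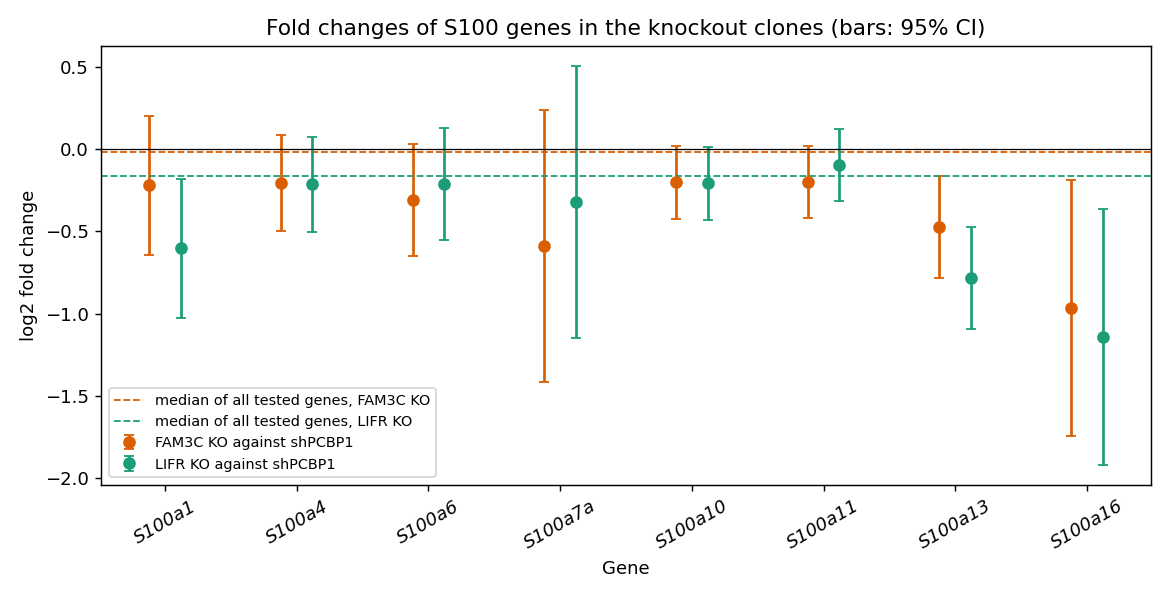
Log2 fold change of the 8 tested S100 genes in FAM3C KO (3 clones) and LIFR KO (3 clones) against the 4 shPCBP1 lines, with 95% confidence intervals from limma and dashed lines at the median of all tested genes. Every point lies below 0 (in LIFR KO S100a6, S100a10 and S100a11 were above 0 with the GC correction, S100a11 also with median-ratio rescaling). S100a13 and S100a16 lie furthest below the LIFR KO median, with log2 fold changes of -0.78 and -1.14, or -0.62 and -0.98 relative to that median.

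Between FAM3C KO and LIFR KO directly, 0 of the 8 members were called by limma, beside 8.28% of all genes. In the same fit 0 members had an unadjusted p under 0.05, beside 3693 of all 12621 genes. Every member overlapped between the groups, while 16.1% of all genes lay apart on the higher side and 6.73% on the lower. With LIFR KO clone 1 alone for its group S100a6 was at -0.43 (adjusted p = 0.0614 from limma), with the spread taken from the other groups and the lone sample assumed to vary like them. For S100a4 the 95% confidence interval of the difference ran from -0.30 to 0.32 and for S100a7a from -1.15 to 0.62.

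The clones of one group differed more than the groups for some members. Relative to the median of its library, S100a7a was at -1.14, 0.58 and -1.17 in FAM3C KO clones 1 to 3, and S100a16 at -0.47, -1.95 and -0.44. FAM3C KO clone 2 was thus highest for S100a7a and lowest for S100a16. In the LIFR KO clones S100a16 was at -0.85, -1.16 and -0.95 and S100a13 at -0.80, -0.70 and -0.39.

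The double KO, a single library with the GC shift, held S100a4 at 296 CPM, S100a6 at 780 CPM, S100a7a at 22.0 CPM, S100a10 at 163 CPM, S100a13 at 13.7 CPM and S100a16 at 15.0 CPM. Its S100a7a value was the lowest of the 11 libraries and stood at -1.51 relative to the median of its library. There was no replicate, and no test was made.

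**Figure D5:**
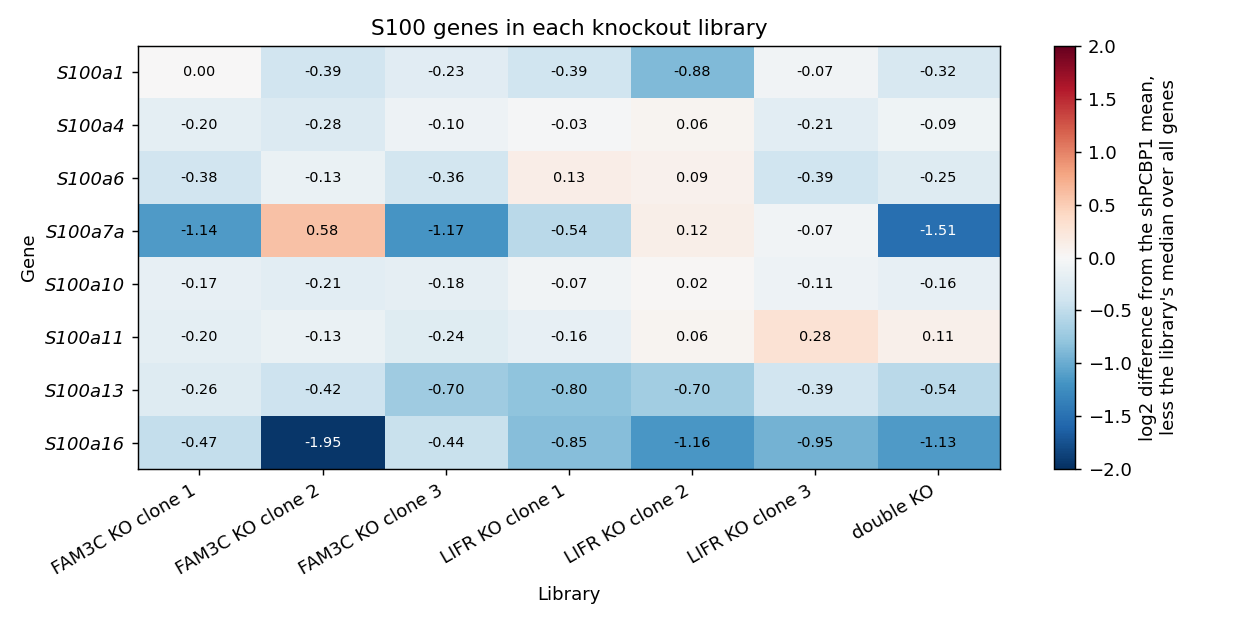
Log2 difference of each knockout library from the shPCBP1 mean, less the median of that library over all genes, for the 8 tested S100 genes (rows) in the 7 knockout libraries (columns). S100a16 is below 0 in all 7, from -1.95 to -0.44, and S100a7a changes sign among the FAM3C KO clones.

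The same partner lists were read in the knockouts. In FAM3C KO, 0 of 32 partner, receptor and calcium-binding genes were called by limma, beside 0.309% of all genes. Fgf1 was not called in either knockout, at -3.34 on the log2 scale in FAM3C KO and -2.25 in LIFR KO. It was at 0.533 to 6.75 CPM in shPCBP1, 0.04 to 0.154 in FAM3C KO and 0.257 to 0.333 in LIFR KO. It passed the filter only through its shPCBP1 level, so nothing is read from these values. In LIFR KO 1 rose, beside 0.911% of all genes, and 4 fell, beside 5.55%: Anxa1, an annexin bound by S100A11, rose by 0.83 on the log2 scale (adjusted p = 0.0414), and Myh9 (-0.84, adjusted p = 0.05005), Anxa2 (-0.47, adjusted p = 0.0543), Capns1, the calpain small subunit (-0.61, adjusted p = 0.0543), and Cib1 (-0.46, adjusted p = 0.0673) fell, all from limma. All 5 calls were lost with the GC correction, where adjusted p lay between 0.0955 and 0.747. The log2 fold change was then 0.71 for Anxa1, -0.31 for Myh9, -0.17 for Anxa2, -0.07 for Capns1 and -0.05 for Cib1. S100a2, the 1 further S100 gene of 4 tested that was called, fell by 0.98 (adjusted p = 0.0630 from limma). It lost its call with that correction at nearly the same size (-0.92, adjusted p = 0.125 from limma). S100a2 was low, at 1.05 to 1.98 CPM in shPCBP1 and 0.686 to 0.736 CPM in LIFR KO. In FAM3C KO it was at 0.680 to 0.922 CPM, and in the double KO at 1.59 CPM, within the shPCBP1 range. No neighbouring gene of the 7 tested was called in either knockout, beside 0.309% of all genes in FAM3C KO and 6.47% in LIFR KO.

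The epithelial list summed to 2466 to 3166 CPM in shPCBP1, 2001 to 3023 CPM in FAM3C KO and 1212 to 2092 CPM in LIFR KO, and the mesenchymal list to 1770 to 2018, 2067 to 2215 and 1277 to 1932 CPM. Of 4 epithelial markers tested, Krt18 was called lower in LIFR KO (log2 fold change -0.72, adjusted p = 0.0663 from limma), a call lost with the GC correction (-0.22, adjusted p = 0.539), with median-ratio rescaling (-0.57, adjusted p = 0.0901), with quantile normalization (-0.66, adjusted p = 0.0755) and without any 1 shPCBP1 line or LIFR KO clone 2 (-0.80 to -0.46, adjusted p of 0.101 to 0.222). Of 6 mesenchymal markers tested, 0 were called in either knockout, beside 0.309% of all genes in FAM3C KO and 6.47% in LIFR KO. The part of these differences in the S100 values was not tested.

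The 5 genes whose log2 values followed S100a4 most closely over the 11 libraries, out of 12620, were Mcub (Pearson r of 0.93), Lamtor3 (0.93), Atg14 (0.92), Smad9 (0.91) and Nbdy (0.90). Over the 8 libraries without the GC shift, the same genes had r between 0.86 and 0.91. For S100a7a they were Wdr3 (0.93), Prelid3b (0.90), Gabrg3 (0.89), Cd55 (0.89) and Tmem74 (0.88), with r between 0.85 and 0.94 over the 8 libraries. Among the members themselves S100a4 and S100a10 were most alike (r of 0.90), and S100a4 and S100a7a had r of 0.33. The libraries share a parental line, and with this many genes ranked the highest values of r are high by selection.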

How the data were processed

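The members and lists were chosen with earlier results of these data known. The authors aligned the reads with Bowtie2, quantified genes in Partek (GRCm38) and ran DESeq, per the labels and methods, and the authors deposited 1 column of CPM per sample. A low constant, 0.0001, stands in place of 0 in the second dataset. The lowest value in the first dataset differed by library, from 0.0213 to 0.0624 CPM, and matched 1 read. Every gene in the first dataset thus had reads in every library. In the second dataset 3 further columns, deposited by the authors, hold group averages and their ratio (fold), and were not used. Low values were whole multiples of 1 step, within a tolerance of 0.1, in shares of 0.905 to 0.943, which was too low for recovering reads, and count models were not fitted. Values were taken as log2(CPM + 0.1), a scale that understates changes of low genes. Genes averaging 0.5 CPM or more entered limma (version 3.58.1, R 4.3.3) with a mean-variance trend, with Benjamini-Hochberg adjusted p under 0.07, the study's threshold, called. The 3 replicated groups of the knockout dataset were fitted together and the double KO was left out. Samples of a group are separate lines or unexplained replicates, so p-values measure only the spread between them.

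Coordinates came from GENCODE M21 (GRCm38), since gene starts equalled it for 14269 of 14795 genes of the second dataset and 302 of 13870 of the first. Named genes were all members, the targeted genes, at most 3 called genes of largest change per list, and the 5 genes most like S100a4 and S100a7a. On simulated data with 200 changed genes, limma recovered 82% of 100 changes of 1 on the log2 scale in the LIFR KO comparison and 77% in FAM3C KO. The changed genes averaged at least 5 CPM, and the simulated noise was independent between genes. A shift shared by many genes, such as the GC shift of some LIFR KO clones, was not simulated. These shares are therefore not the power of the real comparisons. Alternatives were other scalings, pseudocounts, filters and thresholds, 2 groups alone, a replicate block, a GC correction and leaving out each library. The GC correction with the block was added after seeing the data. Clone numbers shared between groups did not pair the samples (correlations of deviations from -0.19 to 0.15). Figures were drawn with matplotlib 3.10.9.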

Additional observations from a re-analysis of the deposited data

Results flagged for a closer look

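Among the 4 shPCBP1 libraries, S100a1 in the unaltered line (21.2 CPM) stood apart from the 3 CT clones (19.9 to 20.002 CPM), with a gap of 0.893 of the whole range. This was 1 of 12 genes checked, and chance marks about 1 in 20 groups in this way.

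Some listed genes differed between FAM3C KO and LIFR KO by the direct contrast in limma. Among S100 partners, Anxa1 was at -0.87 on the log2 scale (FAM3C KO minus LIFR KO) and Myh9 at 0.88. Ager, the RAGE gene, was at 0.95. Of the cell type markers, Krt18 was at 0.86 and Fn1 at 0.91. All 5 were past the threshold with every library, and all 5 lost the call with the GC correction.

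In the double KO, which enters no comparison, S100a8 was at 0.468 CPM, above the 0.128 to 0.412 CPM of the shPCBP1 lines, and this rests on about 10 reads.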

How the results depend on the processing

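No call of a member held under every alternative. In LIFR KO the count of members called was 1, and 0 with the replicate block, with the GC correction, with both and with the 2 groups alone. Leaving out 1 library gave 0 to 5, namely 0 without any 1 of the shPCBP1 lines or LIFR KO clone 2, 2 without clone 3 and 5 without clone 1. Of all 12621 genes, 720 were called without clone 3 and 7232 without clone 1, so these member counts moved with the whole. Without clone 2 the all-gene count was 45, and without 1 shPCBP1 line 5 to 48. Over the 17 alternatives the adjusted p of S100a13 from limma lay between 0.00215 and 0.423, with 8 past the threshold. In FAM3C KO the count was 0, and 2 (S100a6 and S100a13) with the 2 groups alone. Leaving out 1 library kept it at 0. Between the knockouts it was 0, and 1 with LIFR KO clone 1 alone, a fit whose spread comes from the other groups. In the knockdown dataset 2 members, S100a4 and S100a7a, passed the fold in every alternative. The set was chosen around their rise there, so nothing is read from this. Of 31 listed partner genes tested 28 were called, beside 80.1% of all genes, and 28 with the replicate block. With a fold of at least 1.5 as well the count was 7, including Mcam. Clone numbers are only numbers here: over all genes the block called 10 in LIFR KO, against 816 without it, and 15 in FAM3C KO, against 39.

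Values that changed sign were small or low. In LIFR KO, S100a6 was at 0.096 with the GC correction, 0.072 with the block as well and 0.12 with clone 1 alone. S100a10 was at 0.077 and 0.015 in the first 2 of these, and S100a11 at 0.11 and 0.11 and, with median-ratio rescaling, at 0.059. Lifr was at 0.14 with clone 1 alone and between -0.62 (without clone 1) and 0.0088 (without clone 3) when a clone was left out. Between the knockouts, S100a6 lay between -0.29 (without LIFR KO clone 3) and 0.073 (without clone 1), and S100a13 was at -0.063 with the GC correction, with or without the block. Of 688 recomputed single-gene values, 522 kept direction and call, 144 lost the call and 9 gained it.

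Over all genes, LIFR KO called 115 higher and 701 lower, against 170 and 288 with median-ratio rescaling and 248 and 367 with quantile normalization. The GC correction left 39, and leaving out 1 library gave 5 to 7232. FAM3C KO called 39, from 3 to 1040 over the alternatives. FAM3C KO against LIFR KO called 862 higher and 183 lower, against 506 and 312 with median-ratio rescaling and 486 and 347 with quantile normalization, and its total ran from 0 to 6674. The cause was not tested. Depth limits S100a8 and S100a9, at 2 to 12 reads per library.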
